A study of Homo sapiens with 6 samples.

Results

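The genes described here are 34 that act in homologous recombination and in the Fanconi anaemia pathway, with the kinases that signal to both. They were taken by symbol from a table of 52408 genes, and all 34 were found and had enough reads to be among the 15648 genes tested. The RNA came from HepG2, an established human liver cancer line. One group of cells had received 50 µM ellagic acid (EA), a polyphenol of berries and nuts, for 24 h, and the other the same volume of the solvent, dimethyl sulfoxide (DMSO). Both groups were grown in medium with fetal bovine serum and penicillin-streptomycin, and no other agent is named. There were 3 libraries of each kind. Whether they stem from separate cultures is not stated, so a p-value here reflects spread among libraries that may be technical replicates.

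Homologous recombination repairs a broken chromosome by copying the intact sister. The ends are cut back to single strands, BRCA1, PALB2 and BRCA2 prepare these for strand exchange, and a protein filament on them searches for the matching sequence. The Fanconi pathway acts where the DNA strands are joined by a crosslink: a core complex attaches ubiquitin to FANCI and FANCD2, which then close around DNA as a clamp, and the repair is finished by recombination. In many cell types a part of these genes is transcribed mainly in S and G2 phase, when a sister is present.

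Most of the 34 genes were lower with EA. In DMSO their summed level was 1330.2, 1315 and 1369 CPM (reads of a gene as a share of the TMM-scaled library size) in replicates 1, 2 and 3, and with EA it was 807, 781 and 672. All 3 EA libraries thus lay below all DMSO libraries. By edgeR's quasi-likelihood test, adjusted after Benjamini-Hochberg over the whole table, 26 of the 34 genes passed an adjusted p of 0.05 as lower, where 40.5% of all tested genes did (81.0% were called in either direction). The 26 are 76.5% of the 34. Another 3 genes (FANCE, NBN and TOPBP1) passed as higher, against 40.5% of all tested genes, and 5 (PALB2, XRCC2, RAD51B, XRCC3 and RBBP8) did not pass in either direction. In a bulk library, fewer cells in S or G2 phase and less transcript per cell cannot be told apart.

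The falls were often large. A fall of at least 2-fold was found for 22 of the 34 genes (64.7%), against 21.5% of all tested genes. A rise of at least 2-fold was found for none of the 34, against 23.4% of all tested genes. A fall of at least 4-fold was found for 6 (17.6%), against 7.08%: RAD54L (ENSG00000085999), FANCI (ENSG00000140525), UBE2T (ENSG00000077152), FANCG, CHEK2 (ENSG00000183765) and FANCA (ENSG00000187741). The median log2 fold change, EA minus DMSO, was -1.12 over the 34 genes and 0.00 over all tested genes, and single genes ran from -2.70 for RAD54L to 0.49 for FANCE. The 3 EA libraries lay below the 3 DMSO libraries in 28 genes (82.4%), where 41.5% of all tested genes showed this, and above them in 3, where 41.4% did. The groups overlapped in PALB2, XRCC3 and RBBP8.

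**Figure D1:**
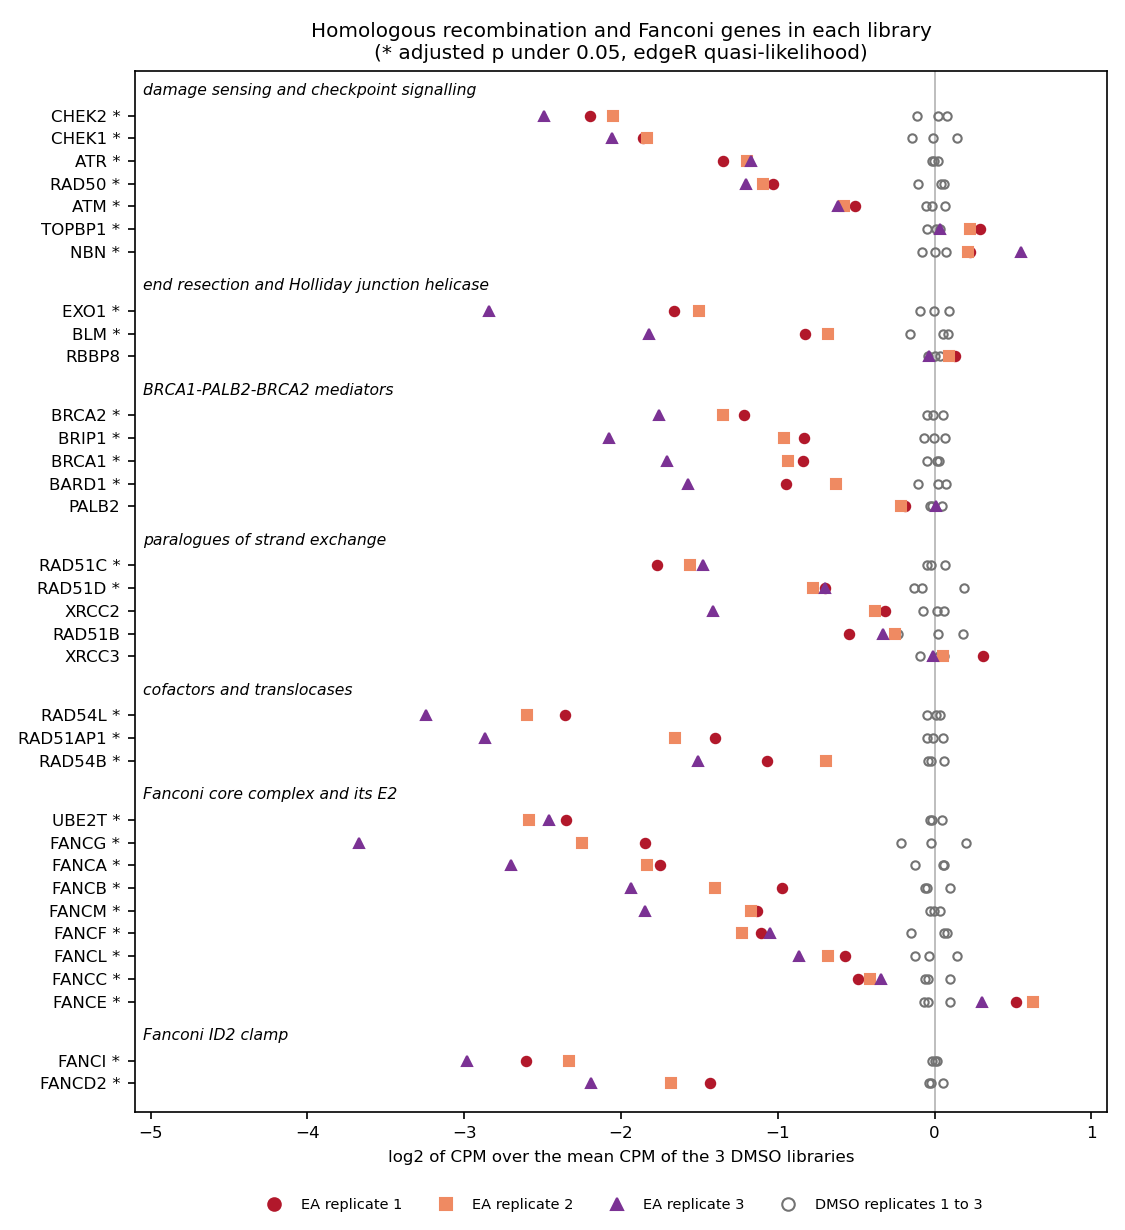
Level of each of the 34 genes in each library, as log2 of its CPM over the mean CPM of the 3 DMSO libraries, grouped by role; filled symbols are EA libraries, open circles are DMSO libraries, and an asterisk marks an adjusted p under 0.05. In 28 genes all EA symbols lie left of all circles, and EA replicate 3 (triangles) is the lowest EA library in 25 genes.

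The sensors and checkpoint kinases were 7 genes, of which 5 fell and 2 rose. CHEK2, the kinase that carries the ATM signal onward, fell most. It stood at 30.2, 26.4 and 29.1 CPM in the DMSO libraries and at 6.22, 6.89 and 5.07 CPM in the EA libraries. The highest EA library was thus far below the lowest DMSO library, with a log2 fold change of -2.24 (SE 0.12, edgeR adjusted p = 1.18e-10). CHEK1, the matching kinase of the ATR branch, fell from 9.24 ± 0.918 to 2.46 ± 0.206 CPM (mean ± SD, n = 3 libraries each). Its log2 fold change was -1.91.

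The kinases above them also fell. ATR, which senses single-stranded DNA at stalled forks, fell from 35.2 ± 0.510 to 14.9 ± 0.984 CPM (n = 3 each), a log2 change of -1.24. ATM, which senses broken ends, fell from 147 ± 6.56 to 99.3 ± 3.86 CPM (n = 3 each), a log2 change of -0.57. The change was -1.19 with offsets for the length of all annotated exons and for GC content. Such offsets come from these same libraries and also take out an EA difference shared by genes of like length or GC content. TOPBP1, the scaffold that activates ATR, gave 108.6, 104.5 and 110.5 CPM in DMSO and 131.8, 126.3 and 110.6 CPM with EA. EA replicate 3 lay barely above the highest DMSO library. The log2 fold change was 0.19 (SE 0.07, edgeR adjusted p = 0.0278), and without any 1 of the other 5 libraries the adjusted p was between 0.0984 and 0.163.

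RAD50 and NBN, the partners of the MRE11 nuclease in the complex that first binds a broken end, moved in opposite directions. RAD50 fell from 75.5 ± 4.63 to 35.0 ± 2.07 CPM (n = 3 each), a log2 change of -1.11. NBN gave 59.5, 53.5 and 56.7 CPM in DMSO and 66.2, 65.6 and 83.0 CPM with EA. All EA libraries were above all DMSO libraries, and EA replicate 3 stood highest. Its log2 fold change was 0.34 (SE 0.09, edgeR adjusted p = 0.00332), and 0.19 (adjusted p = 0.00646) without EA replicate 3. With offsets for annotated exon length and GC content the NBN change was 0.05 and did not pass (edgeR adjusted p = 0.585). MRE11 itself, which is not among the 34, fell from 40.4 ± 2.09 to 20.4 ± 2.05 CPM (n = 3 each), a log2 change of -0.98.

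End resection and the unwinding of recombination intermediates were represented by 3 genes, of which EXO1 and BLM fell. EXO1, an exonuclease that lengthens the resected strand, gave 22.4, 23.8 and 25.4 CPM in DMSO and 7.53, 8.42 and 3.33 CPM with EA. All EA libraries were far below DMSO, and replicate 3 was the lowest. The log2 fold change was -1.9 (SE 0.28, edgeR adjusted p = 0.000526). BLM, a helicase that helps to dissolve crossed-over strands, fell from 16.5 ± 1.47 to 8.07 ± 3.0 CPM (n = 3 each), a log2 change of -1.04. RBBP8 encodes CtIP, the cofactor with which MRE11 starts resection. It gave 47.4, 46 and 48.4 CPM in DMSO and 51.7, 50.5 and 46.1 CPM with EA. The groups overlapped through EA replicate 3, and the log2 fold change was 0.06 (SE 0.08, edgeR adjusted p = 0.439).

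Of the 5 genes around BRCA1, PALB2 and BRCA2, all but PALB2 fell. BRCA2, which acts on the resected single strands, gave 44.3, 45.5 and 47.4 CPM in DMSO and 19.7, 17.9 and 13.5 CPM with EA. No EA library came near a DMSO library, and the log2 fold change was -1.43 (SE 0.11, edgeR adjusted p = 2.17e-08). BRCA1 and BARD1 form a ubiquitin ligase. BRCA1 fell from 52.5 ± 1.5 to 24.3 ± 7.15 CPM and BARD1 from 25 ± 1.56 to 12.5 ± 3.90 CPM (n = 3 each), log2 changes of -1.12 and -1.0. BRIP1, a helicase that binds BRCA1, fell from 40.2 ± 1.9 to 17.6 ± 7.06 CPM (n = 3 each), a log2 change of -1.2.

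PALB2 bridges BRCA1 and BRCA2. It stood at 41.1, 40.8 and 42.9 CPM in DMSO and at 36.5, 35.9 and 41.9 CPM with EA. Replicates 1 and 2 of EA were below all DMSO libraries, and replicate 3 lay among them. The log2 fold change was -0.13 (SE 0.08, edgeR adjusted p = 0.164), and without EA replicate 3 it was -0.23 and passed (adjusted p = 0.004).

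The paralogue group holds RAD51B, RAD51C, RAD51D, XRCC2 and XRCC3, related proteins that form complexes helping strand exchange. Of these 5 genes, 2 fell and 3 did not pass. RAD51C gave 26.0, 27.6 and 25.5 CPM in DMSO and 7.72, 8.95 and 9.46 CPM with EA. The EA libraries were close to each other and far below DMSO, with a log2 fold change of -1.59 (SE 0.10, edgeR adjusted p = 1.26e-09). RAD51D fell from 8.60 ± 1.04 to 5.2 ± 0.147 CPM (n = 3 each), a log2 change of -0.72. Both belong to the complex that also holds RAD51B and XRCC2.

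XRCC2 gave 32.9, 29.9 and 31.9 CPM in DMSO and 25.4, 24.3 and 11.8 CPM with EA. All EA libraries were below DMSO, but replicate 3 stood far from the others, and the log2 fold change of -0.63 (SE 0.28) did not pass (edgeR adjusted p = 0.0825). Without EA replicate 3 it was -0.37 and passed (adjusted p = 1.433e-05). RAD51B had the lowest DMSO level of the 34 genes per kilobase of exon. Its values were 2.49, 2.09 and 2.79 CPM in DMSO and 1.68, 2.07 and 1.96 CPM with EA, where the highest EA library fell just short of the lowest DMSO library. The log2 fold change was -0.37 (SE 0.21, edgeR adjusted p = 0.123). XRCC3, the separate partner of RAD51C, gave 26.3, 26.9 and 24.2 CPM in DMSO and 32, 26.8 and 25.6 CPM with EA. The groups overlapped, and the log2 fold change was 0.12 (SE 0.10, edgeR adjusted p = 0.258). XRCC3 shares 76.7% of its exon bases with the opposite-strand gene KLC1, a point taken up below with the other overlaps.

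All 3 cofactor genes, whose products act during strand exchange, fell. RAD54L, a motor protein that helps the broken strand invade the sister, had the lowest log2 fold change of the 34. It gave 36.4, 38.4 and 37.9 CPM in DMSO and 7.34, 6.2 and 3.96 CPM with EA. The groups were widely apart, with a log2 fold change of -2.70 (SE 0.15, edgeR adjusted p = 4.03e-09). RAD51AP1, which stimulates strand pairing, fell from 26.6 ± 0.963 to 7.38 ± 3.34 CPM (n = 3 each), a log2 change of -1.86. RAD54B, a relative of RAD54L, gave 5.18, 4.83 and 4.88 CPM in DMSO and 2.36, 3.07 and 1.74 CPM with EA. Its groups were also apart, with a log2 fold change of -1.05 (SE 0.20, edgeR adjusted p = 0.000165).

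The Fanconi core complex with its ubiquitin-conjugating enzyme was represented by 9 genes, of which 8 fell and FANCE rose. UBE2T, the conjugating enzyme, gave 24.0, 22.7 and 23.0 CPM in DMSO and 4.54, 3.87 and 4.23 CPM with EA. The libraries within each group were close together, and the log2 fold change was -2.46 (SE 0.11, edgeR adjusted p = 2.2e-11). FANCL, the ligase that works with UBE2T, fell by less, from 41.9 ± 3.98 to 25.8 ± 2.63 CPM (n = 3 each), a log2 change of -0.70.

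FANCA and FANCG bind each other within the core. FANCA fell from 126 ± 8.86 to 30.8 ± 9.93 CPM (n = 3 each), a log2 change of -2.04. FANCG fell from 2.02 ± 0.291 to 0.381 ± 0.204 CPM (n = 3 each), a log2 change of -2.42, and it rested on few reads: 51, 40 and 59 in DMSO and 9, 8 and 3 with EA. FANCB, a partner of FANCL, fell from 14.4 ± 0.893 to 5.52 ± 1.80 CPM, and FANCM, the translocase that anchors the core on DNA, fell from 20.3 ± 0.460 to 7.98 ± 2.02 CPM (n = 3 each). Their log2 changes were -1.40 and -1.35.

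FANCC, FANCE and FANCF form the arm of the core that meets the substrate, and their values differed in direction. FANCF fell from 8.30 ± 0.709 to 3.81 ± 0.237 CPM (n = 3 each), a log2 change of -1.12. FANCC gave 26.0, 23.3 and 23.6 CPM in DMSO and 17.4, 18.3 and 19.2 CPM with EA. All EA libraries were lower, by a log2 fold change of -0.41 (SE 0.09, edgeR adjusted p = 0.000725). FANCE gave 13.7, 12.4 and 12.2 CPM in DMSO and 18.3, 19.7 and 15.7 CPM with EA. Here all EA libraries were higher, by a log2 fold change of 0.49 (SE 0.11, edgeR adjusted p = 0.000784). FANCE was the 1 gene of the 34 that passed as higher under all 17 alternative analyses.

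Both substrates of the core fell. FANCI gave 83.9, 82.0 and 83.3 CPM in DMSO and 13.6, 16.5 and 10.5 CPM with EA. The groups were far apart, with a log2 fold change of -2.62 (SE 0.12, edgeR adjusted p = 4.14e-10). FANCD2, which pairs with FANCI in the clamp, gave 63.4, 62.8 and 66.7 CPM in DMSO and 23.8, 20.03 and 14.1 CPM with EA. Its groups were apart as well, by a log2 fold change of -1.74 (SE 0.15, edgeR adjusted p = 2.59e-06).

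Across the groups of roles, the median log2 fold change was -2.18 for the 2 clamp genes and -1.86 for the 3 cofactor genes of strand exchange. It was -1.35 for the 9 core genes, -1.12 for the 5 mediators, -1.11 for the 7 sensors and kinases, and -1.04 for the 3 resection genes. The 5 paralogues had the smallest median fall, -0.63. Differences between these groups were not tested, since genes of a group are not replicates.

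Levels were also divided by the summed length of all annotated exons of a gene, from 1.65 kilobases for UBE2T to 24.0 for ATM. Which of these exons the cells use was not tested, so the order of genes depends on the annotation. On this measure the highest levels in DMSO were those of FANCL at 17.4 CPM per kilobase, TOPBP1 at 14.8, UBE2T at 14.1 and FANCA at 13. With EA, TOPBP1 was the highest of the 34 at 16.8 CPM per kilobase, NBN followed at 11.6 and FANCL at 10.7, while UBE2T stood at 2.55 and FANCA at 3.17. RAD54L went from 11.7 to 1.82 CPM per kilobase and FANCI from 10.7 to 1.74. The lowest levels in DMSO were those of RAD51B at 0.329, FANCG at 0.558 and RAD51D at 0.760 CPM per kilobase. Over the 34 genes, Spearman's rho of the log2 fold change was 0.15 with exon length, -0.06 with GC content and -0.09 with the DMSO level per kilobase, where over all tested genes it was 0.04, -0.08 and -0.36. These are descriptions across genes measured in the same 6 libraries.

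**Figure D2:**
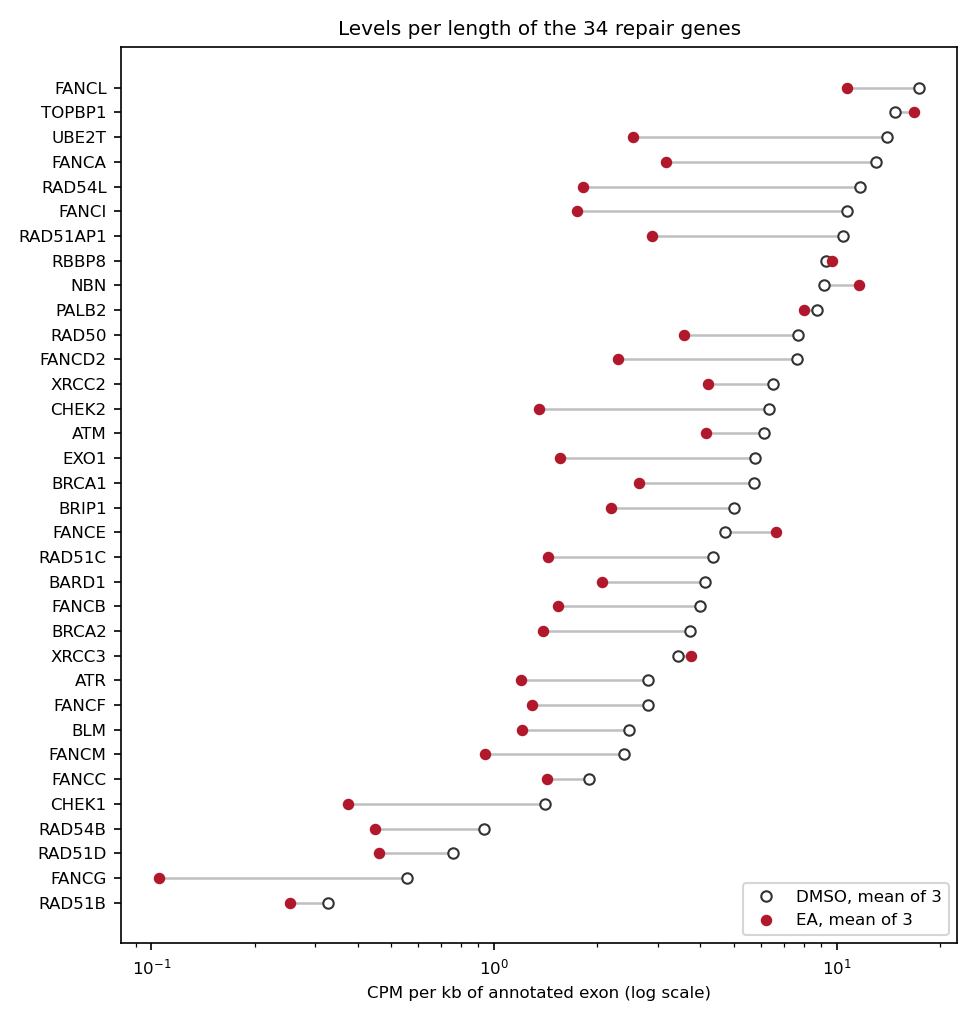
Mean level of each of the 34 genes over 3 DMSO libraries (open circles) and 3 EA libraries (filled circles), in CPM per kilobase of annotated exon on a log axis, ordered by the DMSO level; a grey line joins the means of a gene. Most filled circles lie left of the open ones, far left for UBE2T (14.1 to 2.55) and RAD54L (11.7 to 1.82), and right of it for TOPBP1 (14.8 to 16.8).

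EA replicate 3 differed from the other EA libraries in many of these genes. It was the lowest EA library in 25 of the 34 genes (73.5%), where it was lowest in 37.2% of all tested genes; EA replicate 1 was lowest in 4 and replicate 2 in 5. Against the DMSO mean, the median log2 ratio of the 34 genes was -1.0, -1.03 and -1.54 in EA replicates 1, 2 and 3, and over all tested genes it was -0.01, 0.01 and -0.01. The gap between replicate 3 and the mean of the other EA libraries was widest for FANCG (-1.62 on the log2 scale), RAD51AP1 (-1.34), EXO1 (-1.26) and BRIP1 (-1.18). For RAD51C, ATR, FANCF, FANCC, RAD51D, RAD51B, PALB2, UBE2T and NBN, replicate 3 was at or above that mean.

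A list of 18 proliferation markers moved alongside. Its median log2 ratio to DMSO was -1.74, -1.6 and -2.24 in EA replicates 1, 2 and 3, and replicate 3 was the lowest EA library for 15 of its 18 genes (83.3%). The part of cell division in the fall of the repair genes, and in the position of replicate 3, was not tested. The median coefficient of variation within a group was 5.03% in DMSO and 14.5% with EA for the 34 genes, against 6.26% and 10.8% for all tested genes. Without EA replicate 3, 28 of the 34 genes passed as lower and 3 as higher, with a median log2 fold change of -1.01, the added calls being PALB2 and XRCC2.

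**Figure D3:**
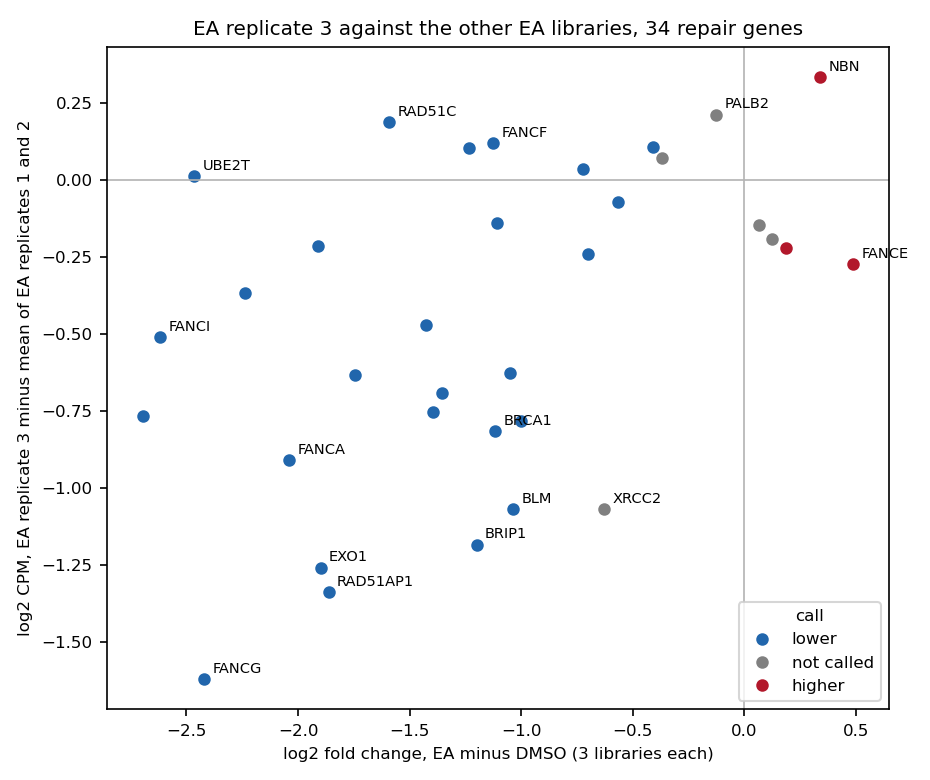
For each of the 34 genes, the log2 fold change of EA over DMSO from 3 libraries each (horizontal) and the log2 CPM of EA replicate 3 minus the mean of EA replicates 1 and 2 (vertical); colours give the call, and both axes use the same EA libraries. Most genes lie below 0 on the vertical axis, down to -1.62 for FANCG, while RAD51C (0.19) and NBN (0.33) lie above it.

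The rest of the pathway was read from lists that leave out the 34 genes. Of 34 tested further genes of homologous recombination, 22 fell, 3 rose and 9 did not pass, with a median log2 fold change of -0.69. Among them FIRRM, listed as C1orf112, fell by 2.09 on the log2 scale, and the helicase gene MCM9 (0.88) and SFR1 (0.47) rose most. Further Fanconi and crosslink repair genes split: 8 of 19 fell, 5 rose and 6 did not pass, with a median of 0.02. ADH5 (-2.43) and ALDH2 (-2.36), which remove the aldehydes that cause crosslinks, fell, while REV3L (1.30), the catalytic part of a translesion polymerase, and ERCC1 (1.29), part of a nuclease that unhooks crosslinks, rose.

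Genes that mark chromatin at a break or hold BRCA1 there were also divided, with 8 of 16 lower, 6 higher, 2 not passing and a median of -0.15. RNF168 (1.76), a ubiquitin ligase at breaks, and UIMC1 (1.44), which recruits the BRCA1-A complex, rose, whereas SHLD1 (-1.52) and ABRAXAS1 (-1.01) fell. Among further checkpoint genes, 10 of 14 fell, 2 rose and 2 did not pass, with a median of -1.11, led by the phosphatase genes CDC25C (-2.15) and CDC25B (-1.73). In end joining, the route that does not copy a sister, 5 of 10 genes fell, 4 rose and 1 did not pass, with a median of -0.33: PAXX (-1.64) and XRCC6 (-1.31) fell and XRCC4 (1.63) and DCLRE1C (1.11) rose. Background shares for these counts are the 40.5% of tested genes called in each direction.

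A list of E2F and DREAM genes, which act on S-phase transcription, and of regulators linked to them had 15 of 21 lower, 5 higher and 1 not passing, with a median of -0.68. E2F8 (-2.80) and MYBL2 (-2.75) fell most. CDKN1A, an inhibitor of cyclin-dependent kinases and 1 of the 5, rose from 249 ± 6.21 to 1228 ± 54.2 CPM (n = 3 each), a log2 change of 2.30. Of the 18 proliferation markers, 17 fell and CCNE2 (-0.15) did not pass, with a median of -1.85. MKI67 fell from 384 ± 6.5 to 132 ± 39.5 CPM (n = 3 each), a log2 change of -1.54. The background for the counts of both lists is again the 40.5% of tested genes called in each direction.

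**Figure D4:**
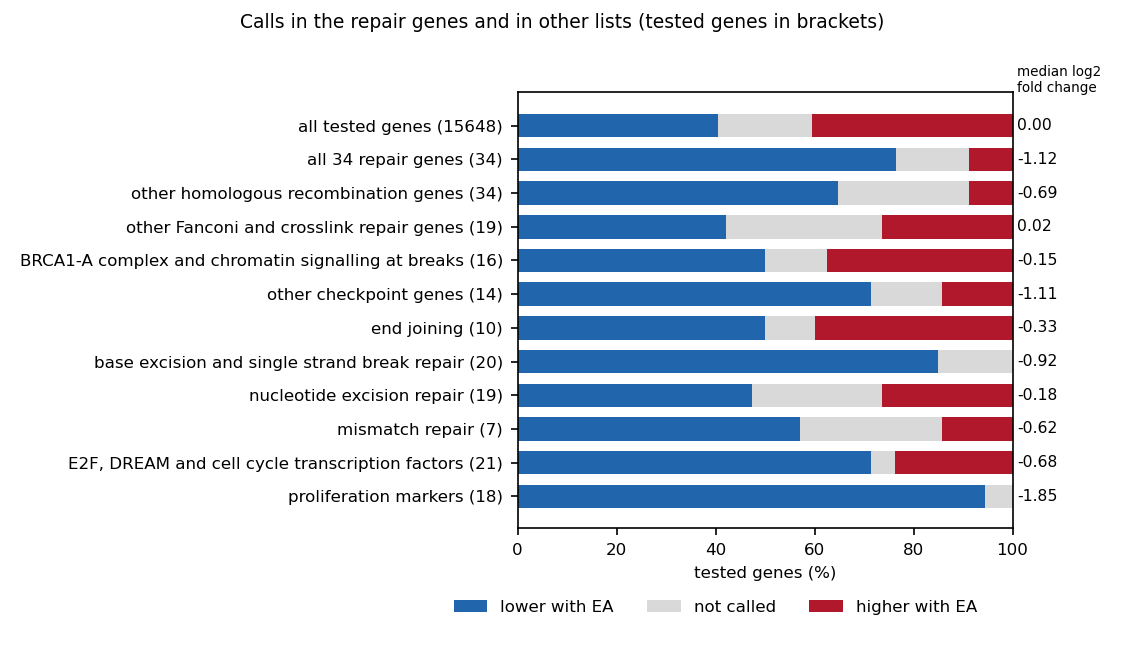
Share of tested genes that passed an adjusted p of 0.05 as lower (blue) or higher (red) with EA, or did not pass (grey), in each list, with the number tested in brackets and the median log2 fold change at the right. The 34 repair genes have 76.5% lower, all tested genes 40.5%, and the proliferation markers the lowest median, -1.85.

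Several repair genes share a start region with a gene on the opposite strand. In GENCODE 29, 18 of the 34 have such a neighbour with a start within 1000 bases, in 19 pairs, and 9 of the 14 coding neighbours were tested. Of these 9 neighbours, 5 fell, 3 rose and 1 did not pass, with a median log2 fold change of -0.63 (background as above). ATM and NPAT, a histone gene activator, moved apart: NPAT rose from 25.8 ± 0.877 to 42.7 ± 1.9 CPM (n = 3 each), a log2 change of 0.72. The same held for FANCB and MOSPD2, which rose from 14.4 ± 0.435 to 31.1 ± 1.66 CPM (n = 3 each), a log2 change of 1.11, and for BRCA1 and NBR1, which rose by 0.61.

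Other neighbours moved in the direction of the repair gene. FKBP3, next to FANCM, fell from 79.5 ± 2.51 to 26.3 ± 0.0985 CPM (n = 3 each), a log2 change of -1.59. GAS2 (-3.76) beside FANCF, C12orf4 (-0.95) beside RAD51AP1 and HSCB (-0.81) beside CHEK2 fell too. ZFYVE21 fell (-0.63) beside XRCC3, which did not pass, and for PALB2 and DCTN5 (-0.23, edgeR adjusted p = 0.298) neither gene passed. The difference between a gene and its neighbour was not itself tested.

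**Figure D5:**
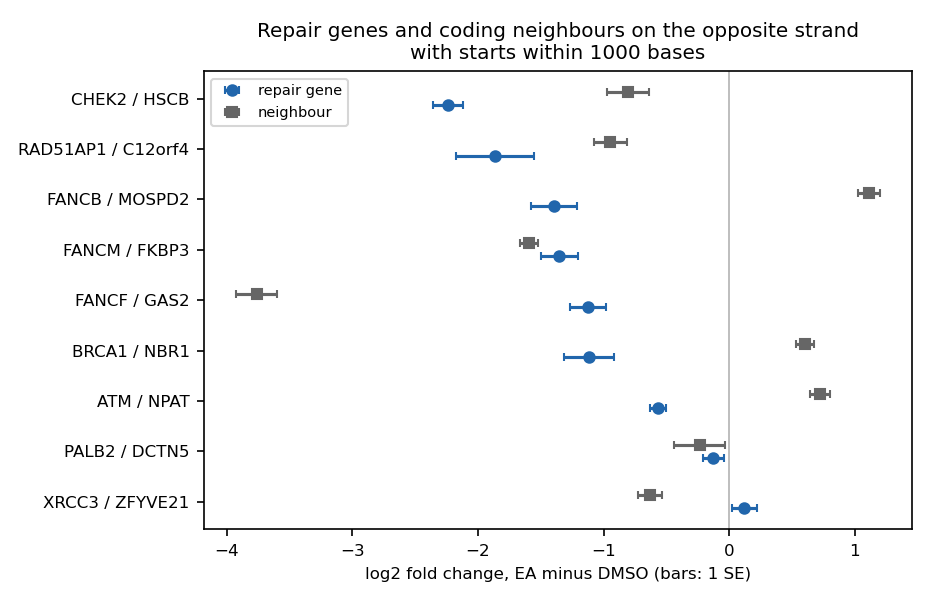
Log2 fold change, EA minus DMSO, of repair genes (blue circles) and of their tested coding neighbours on the opposite strand (grey squares), with bars of 1 SE; pairs are ordered by the repair gene. The neighbours of ATM (0.72), FANCB (1.11) and BRCA1 (0.61) lie right of 0, and the repair genes themselves lie left of it.

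Reads of overlapping genes limit some of these values, because no source used here gives the strand setting of the counting, and reads from either strand cannot then be told apart. In GENCODE 29, 15 of the 34 genes share no exon base with another gene, 8 share over 10% and 3 share over 50%. RAD50 shares 79.7% with TH2LCRR and AC116366.3, XRCC3 76.7% with KLC1, and RAD54B 59.1% with FSBP. KLC1 rose by 0.32 on the log2 scale, from 8.74 to 10.9 CPM, and TH2LCRR rose from 0.457 to 0.959 CPM (means, n = 3 each). The part of their reads in the values of XRCC3 and RAD50 was not tested. RAD54L shares 25.1% of its exon bases with LRRC41 (-0.07, not passing), FANCA 23.6% with ZNF276 (0.35, higher) and FANCL 19.7% with VRK2 (1.00, higher). ATR shares 16.4% with AC109992.1. FANCF shares 11.3% with GAS2, which fell from 39.3 ± 0.962 to 2.87 ± 1.05 CPM (n = 3 each), in the direction of FANCF and from a higher read count. The part of GAS2 reads in the fall of FANCF was not tested.

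RefSeq start regions were matched by symbol for 31 of the 34 genes (42 starts, GRCh38.p14), with no entry for FANCI, NBN and RAD54B. Of the 42 starts, 37 lie in a GENCODE transcript of their gene, and that of FANCE, printed below, does not. To show what lies before genes at both ends of the response, the last 150 bases before the outermost listed start are printed for 3 genes that fell strongly and 3 that fell little, did not pass or rose. They were taken from the 10 genes whose window lies outside the annotated transcripts of the same gene. Transcripts of other genes were not checked, and the annotated starts of PALB2 and DCTN5 lie 82 bases apart on opposite strands. Capitals mark CCAAT or its reverse complement ATTGG, and E2F-type letters. All sequences run 5′ to 3′ on the gene's strand.
RAD54L (chr1:46247538-46247687, plus strand): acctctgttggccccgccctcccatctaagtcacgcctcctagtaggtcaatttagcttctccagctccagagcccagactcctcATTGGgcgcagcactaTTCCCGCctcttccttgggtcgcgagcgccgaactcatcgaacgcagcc
CHEK1 (chr11:125626074-125626223, plus strand): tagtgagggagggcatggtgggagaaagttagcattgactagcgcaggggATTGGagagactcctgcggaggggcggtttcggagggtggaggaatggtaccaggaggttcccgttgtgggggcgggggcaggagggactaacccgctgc
RAD51C (chr17:58692423-58692572, plus strand): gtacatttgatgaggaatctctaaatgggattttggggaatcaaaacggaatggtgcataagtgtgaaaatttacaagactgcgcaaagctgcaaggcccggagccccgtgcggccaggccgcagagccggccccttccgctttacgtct
FANCC (chr9:95317710-95317859, minus strand): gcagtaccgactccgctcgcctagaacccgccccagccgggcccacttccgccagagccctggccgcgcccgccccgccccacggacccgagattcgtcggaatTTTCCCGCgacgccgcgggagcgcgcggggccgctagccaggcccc
PALB2 (chr16:23641311-23641460, minus strand): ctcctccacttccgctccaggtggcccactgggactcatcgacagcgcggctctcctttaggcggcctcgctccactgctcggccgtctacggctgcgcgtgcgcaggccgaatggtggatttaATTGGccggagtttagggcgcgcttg
FANCE (chr6:35452188-35452337, plus strand): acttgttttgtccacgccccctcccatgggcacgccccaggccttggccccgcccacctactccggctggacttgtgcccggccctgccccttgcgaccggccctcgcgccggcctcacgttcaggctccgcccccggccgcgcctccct

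RAD54L (-2.70) has ATTGG and TTCCCGC, CHEK1 (-1.91) has ATTGG, and RAD51C (-1.59) has neither. FANCC (-0.41) has TTTCCCGC, PALB2 (-0.13, not passing) has ATTGG, and FANCE (0.49) has neither. Both ends of the response thus hold windows with and without these letters. Over the 250 bases before every listed start and on both strands, CCAAT was found for 14 of the 31 genes (45.2%), against 41.2% of the 10460 tested genes with an entry. The E2F forms TTTCGCGC, TTTGGCGC, TTTCCCGC and TTTGCCGC were found for 2 (6.45%), against 5.3%. The same forms without their first T, which lie within the longer ones and were added after the first search, were found for 10 (32.3%), against 20.4%. The CHR letters TTTGAA and TTCGAA, known from cell cycle genes, were found for 4 (12.9%), against 13.8%. The median log2 fold change was -1.28 with CCAAT and -1.0 without it, and -1.08 with the shorter E2F forms and -1.2 without them. A match describes letters and is not a measured site.

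Libraries held 22987425 to 25973621 counted reads in DMSO and 15738089 to 19202292 with EA. On all tested genes, the first principal component (94.3% of the variance) separated EA from DMSO, and EA replicate 3 stood apart from the other EA libraries on the second (2.49%). The HepG2 label was checked with 10 hepatocyte markers, which were all detected, with a summed level of 51330 to 54223 CPM in DMSO and 13530 to 14077 CPM with EA. APOB alone went from 29447 to 3080 CPM (means, n = 3 each). Of the 10 markers, 9 passed as lower, against 40.5% of all tested genes, and APOA1 passed as higher (0.35) with overlapping groups. Of 7 fibroblast markers, 3 passed the read filter, COL1A2 and DCN had 0 reads in all libraries, and the summed level was 47.1 to 48.2 CPM in DMSO and 56.6 to 62.1 CPM with EA. ACTA2 rose from 30.6 to 53.7 CPM (mean, n = 3 each) and makes up the increase, while PDGFRB fell (log2 change -1.58) and COL1A1 fell from 14, 15 and 28 reads to 1, 0 and 1. Of 7 immune markers, 4 passed, PTPRC, CD3E and CD68 had 0 reads in all libraries, and the summed level was 1761 to 1841 CPM in DMSO and 293 to 357 CPM with EA, nearly all of it LYZ, which fell. CD14 fell as well (-2.88), and CSF1R rose from 3, 3 and 2 reads in DMSO to 34, 36 and 29 with EA. Of 6 endothelial markers, 3 passed, KDR had at most 1 read in a library and TEK had 0 reads in each DMSO library and 8, 5 and 11 with EA, and the summed level was 2.91 to 3.08 CPM in DMSO and 3.50 to 4.61 CPM with EA. VWF rose (1.53), CDH5 fell (-1.94) and CLDN5 did not pass (-0.59). The part of other cell types in the results was not tested.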

How the data were processed

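RNA was sequenced from 6 HepG2 libraries, 3 with 50 µM EA and 3 with DMSO for 24 h. Per the labels' protocols, RNA was extracted with TRIzol and made into NEBNext Ultra libraries. HISAT, HTSeq 0.6.1, cutadapt 1.9.1, bcl2fastq 2.17.1.14 and the hg19 build are named, without order, in the processing notes of the submitters. No source used here gives the annotation release or strand setting. The authors deposited raw counts of reads per gene, not normalised, for 52408 genes.

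From these, filterByExpr left 15648 genes, TMM factors scaled the library sizes, and the groups were tested with edgeR 4.0.16 (R 4.3.3; quasi-likelihood F test, robust), adjusted after Benjamini-Hochberg over the whole table. Common biological variation was 7.96%. CPM use the scaled sizes, and each SE is the log2 fold change, without sign, divided by the root of its F statistic. Precision is set by the reads per gene and the 3 libraries per group. The test was checked on simulated counts.

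The 34 genes and the 14 other lists (214 further genes, 6 matched by older symbols, SHLD3 and PECAM1 not matched) were chosen with earlier results of these data known. Values by library are given for the genes with the largest and smallest change in each role, those not called and those opposite to most of their role; in other lists at most the 2 largest called changes each way with a mean of at least 1 CPM are named, with MRE11, CDKN1A and MKI67 among genes added for reference. A few genes within the rule are not reported here. CCNE2, LYZ, NPAT and the other neighbouring, overlapping or marker genes are named outside this rule. GENCODE 29 (GRCh38, not the submitters' hg19) gave exon length, GC content and neighbours, so only RefSeq start regions carry coordinates. The 17 alternatives were other scalings, filters and thresholds, DESeq2 1.42.0, limma-voom (limma 3.58.1), offsets for length and GC content, a replicate block and each library left out.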

Additional observations from a re-analysis of the deposited data

How the results depend on the processing

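At an adjusted p of 0.05, the same 26 of the 34 genes passed as lower and FANCE passed as higher in each of 17 alternatives. The count passing as lower was 25 at the stricter 0.01 and at most 28, and DESeq2 gave 26 lower and 3 higher. The count passing as higher was 1 with a minimum fold of 1.2 (FANCE) and 1 with offsets for length and GC content (FANCE). Those offsets also take out an EA difference shared by genes of like length or GC content. They put the median log2 fold change at -1.36 and moved ATM from -0.57 to -1.19, ATR from -1.24 to -1.82, FANCC from -0.41 to -0.93 and BRCA2 from -1.43 to -1.93. Direction was reversed for RBBP8 (-0.0677) and XRCC3 (-0.0102) without the read filter, which moved the median of all genes to 0.25, and for XRCC3 (-0.0856) and TOPBP1 (-0.000484) with the offsets; the cause was not tested. RAD51B passed as lower with the offsets (-0.58, adjusted p = 0.0175), PALB2 passed without the read filter (-0.26, adjusted p = 0.0109), TOPBP1 did not pass there (0.06, adjusted p = 0.566), and BRIP1 did not pass at 0.01 (adjusted p = 0.014, all by edgeR). With each library left out in turn, 26 to 28 genes passed as lower and 2 to 3 as higher, and the median was between -1.27 and -1.01. Libraries with the same replicate number had correlated deviations of -0.08, 0.03 and -0.02, and those with unlike numbers -0.05 to 0.07. Deviations from means of 3 libraries cannot show whether the numbers pair the libraries, which the labels do not state. With a replicate block, 26 genes passed as lower and 3 as higher, with a median of -1.13. Depth limits FANCG and RAD51B most, which have the fewest reads of the 34, and 3 libraries a group leave changes such as those of XRCC3 and RBBP8 undecided.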

Other observations

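Of 20 genes of base excision and strand break repair, 17 passed as lower in edgeR's quasi-likelihood test, and the other 3 did not pass, with a median log2 fold change of -0.92, beside the 40.5% of all tested genes called lower. The glycosylase genes NEIL3 (-4.24) and NTHL1 (-2.71), which remove oxidised bases, fell most. Of 19 nucleotide excision genes, 9 fell, 5 rose and 5 did not pass, with a median of -0.18. CETN2 (-3.11) and the helicase gene ERCC2 (-2.84) fell, and ERCC5 (0.96) and XPC (0.85), which finds the distorted helix, rose. ERCC5 rested on few reads: 19, 15 and 27 in DMSO and 28, 28 and 30 with EA. Of 7 mismatch repair genes, 4 fell, 1 rose and 2 did not pass, with a median of -0.62: MSH3 (-0.84) fell and MLH3 (0.23) rose. Differences between these routes were not tested.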
